A study of Mus musculus with 4 samples.

Results

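The genes described here are Cdkn1a, the gene of the cell cycle inhibitor p21, and other genes that answer to the transcription factor p53. A list of 10 symbols was asked for: Cdkn1a, Trp53, Mdm2, Ccng1, Gadd45a, Btg2, Sesn1, Bax, Phlda3 and Trp53inp1. Of these, 8 genes had at least 1 probe set annotated to that symbol alone, among 12393 genes on the array, and they were covered by 16 probe sets. Trp53 and Bax were not analysed here. Cdkn1a was chosen because its signal was higher in the transgenic muscle, and the other genes were named as its p53-responsive companions with earlier results of the same arrays known. Their differences between the groups are therefore given as a description, with no test of their own.

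MCK-PPARb and control mice were compared, with 2 arrays of each. The MCK-PPARb transgenic mice overexpress PPARbeta in muscle, and the controls are their non-transgenic littermates, labelled wild type. All mice were 6 weeks old and the tissue was gastrocnemius, a calf muscle, from which total RNA was taken. MCK stands for muscle creatine kinase, whose promoter is active in muscle fibres, while the RNA came from whole muscle and includes that of other cells. Array titles speak of biological replicates, but no label ties a replicate number to a litter or day. If arrays of a group shared a mouse, p-values would measure technical spread.

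p53, encoded by Trp53, is a sequence-specific activator that accumulates when DNA is damaged or cells are otherwise stressed. Among its targets, Cdkn1a stops the cell cycle by blocking cyclin-dependent kinases, Mdm2 encodes the ubiquitin ligase that degrades p53 and so closes a feedback loop, and others act in repair, metabolism or cell death. In the muscle lineage, p21 is known for the exit of myoblasts from the cell cycle, and Cdkn1a can be induced there without p53, for example by the myogenic factor MyoD. Sesn1 and Cdkn1a are also known targets of FoxO factors.

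p53 binds DNA as a tetramer on pairs of a partly degenerate decamer, called the p53 decamer here. The windows of 250 bases before the annotated starts of the measured genes were searched for it, on sequences of RefSeq for build GRCm38.p6. The decamer reads as its own pattern on both strands, so 1 search covers both. Windows were found for 7 of the 8 measured genes, all but Trp53inp1, and 5 of these 7 held at least 1 match: Cdkn1a, Sesn1, Mdm2, Ccng1 and Gadd45a. Over all 27025 genes with a window, 8.2% held at least 1 and 0.281% held 2 or more. The 7 measured genes are known p53 targets, so their share describes them and tests nothing. Cdkn1a has a pair of annotated starts, 2790 bases apart, and its windows are shown in full because its 2 decamers stand before the first, with 12 bases between them. The match nearer to the first start begins 51 bases before it, which is 2841 bases before the second start. The 10 bases that follow this match differ from the decamer at 1 position. The second window holds no decamer but 2 GC boxes (GGGCGG or its complement CCGCCC), a motif found in 32.7% of all 32851 windows. Capitals mark the decamers in the first window and the GC boxes in the second.
Cdkn1a first start chr17:29090729-29090978 (plus strand): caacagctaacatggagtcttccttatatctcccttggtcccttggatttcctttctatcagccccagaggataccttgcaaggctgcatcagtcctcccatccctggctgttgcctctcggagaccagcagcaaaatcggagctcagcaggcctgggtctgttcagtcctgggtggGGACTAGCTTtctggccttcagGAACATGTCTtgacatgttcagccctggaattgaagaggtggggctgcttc
Cdkn1a second start chr17:29093519-29093768 (plus strand): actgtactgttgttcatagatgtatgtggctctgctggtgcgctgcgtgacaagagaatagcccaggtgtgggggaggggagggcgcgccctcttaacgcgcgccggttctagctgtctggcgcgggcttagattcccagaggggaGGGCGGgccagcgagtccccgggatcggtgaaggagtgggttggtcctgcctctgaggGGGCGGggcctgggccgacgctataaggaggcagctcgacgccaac

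The decamers of the other genes are shown for comparison with those of Cdkn1a, with 20 bases on either side and the match in capitals. They begin 173 bases before the second of the annotated starts of Sesn1, 186 before that of Mdm2, 185 before that of Ccng1 and 40 before that of Gadd45a. Btg2 and Phlda3 had no match in this window, which says only that these letters are not there. A match is a description of the sequence and not a bound site.
Sesn1 second start chr10:41887246-41887295 (plus strand): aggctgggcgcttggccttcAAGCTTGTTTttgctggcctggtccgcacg
Mdm2 chr10:117710915-117710964 (minus strand): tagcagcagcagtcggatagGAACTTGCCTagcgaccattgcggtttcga
Ccng1 chr11:40755442-40755491 (minus strand): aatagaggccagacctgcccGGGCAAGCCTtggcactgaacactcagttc
Gadd45a chr6:67037418-67037467 (minus strand): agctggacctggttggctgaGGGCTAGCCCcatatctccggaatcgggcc

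**Figure D1:**
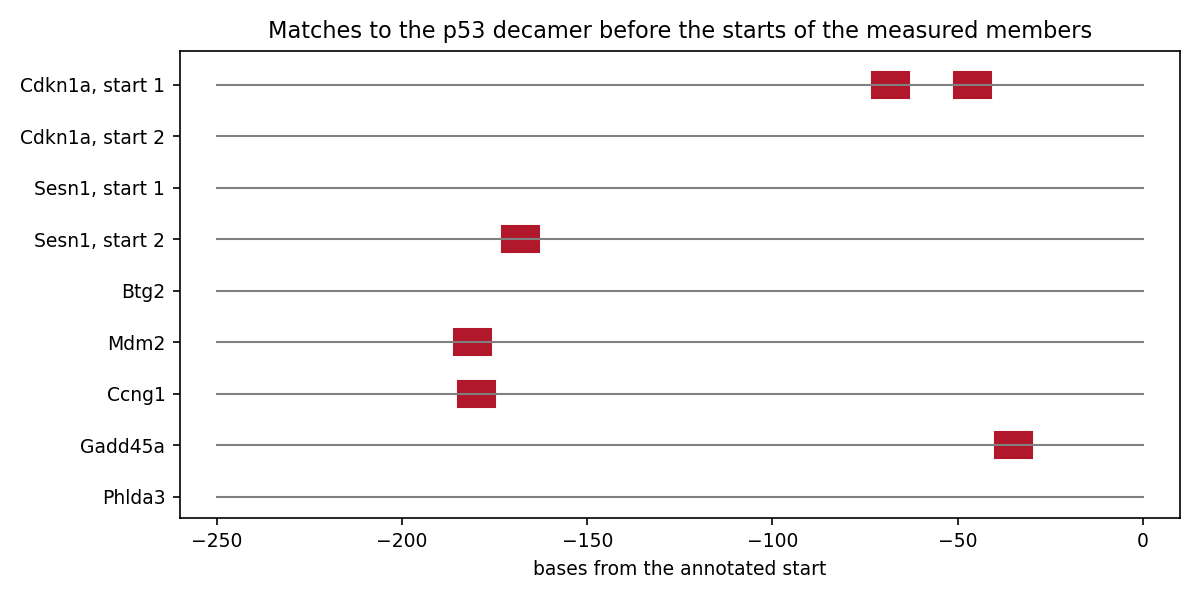
Positions of matches to the p53 decamer (red blocks) in the 250 bases before each annotated start of the measured genes with a window, in bases from the start. Cdkn1a is the gene with 2 matches, at 73 and 51 bases before its first start, and Btg2 and Phlda3 have none.

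Values are signal intensities on a linear scale, scaled by the authors so that the mean after leaving out 2% of probe sets at each end was 1501 on every array. Probe sets were tested when their mean log2 signal over the 4 arrays lay above the median of all probe sets, a level of 444 signal units, which left 6841 genes. Median signals were 513 and 454 on the MCK-PPARb arrays and 466 and 431 on the non-transgenic arrays. Ppard, the overexpressed gene, read 126049 and 98796 in MCK-PPARb and 2169 and 2825 in non-transgenic muscle. The 6 markers of muscle fibres measured (Ckm, Acta1, Myh4, Tnnt3, Pvalb and Atp2a1) were among the brightest signals and summed to 883998 and 758525 in MCK-PPARb and 1446669 and 743172 in non-transgenic muscle, so that non-transgenic replicate 1 stood above the other 3 arrays.

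Cdkn1a was far higher in MCK-PPARb muscle, whereas the other p53-responsive genes differed less. Sesn1, Trp53inp1 and Btg2 lay higher by log2 differences of 0.77 to 1.10, and Mdm2, Ccng1, Gadd45a and Phlda3 lay within 0.21 of zero. This order is a description and not a division into separate sets. Without non-transgenic replicate 2, Gadd45a differed by 0.59 and Btg2 by 0.40. Of the 8 measured genes, all above the filter, 1 was called at an adjusted p under 0.05 in limma, Cdkn1a, and none of the other 7. Over all genes, 0.731% were called, 0.409% with MCK-PPARb higher, and nothing is read from the members' count because Cdkn1a was chosen on this comparison. Over the table, 28 genes were called higher and 22 lower, and with median centring, which moved the median of all genes by -0.11, 33 higher and 41 lower. With the deposited scaling, the count of 50 became 26 and 31 without MCK-PPARb replicate 1 or 2 and 91 and 105 without non-transgenic replicate 1 or 2. None of the other 7 was called in any of these or in the other alternatives. The groups did not overlap, with MCK-PPARb higher, for 4 of the 8, against a background of 22.2% of all genes. Cdkn1a, chosen on this comparison, is among these 4, and Mdm2 separated only narrowly (2661 against 2582). Nothing is read from this count either. With 2 arrays against 2, an exact permutation test of 1 gene cannot go below p = 0.333.

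**Figure D2:**
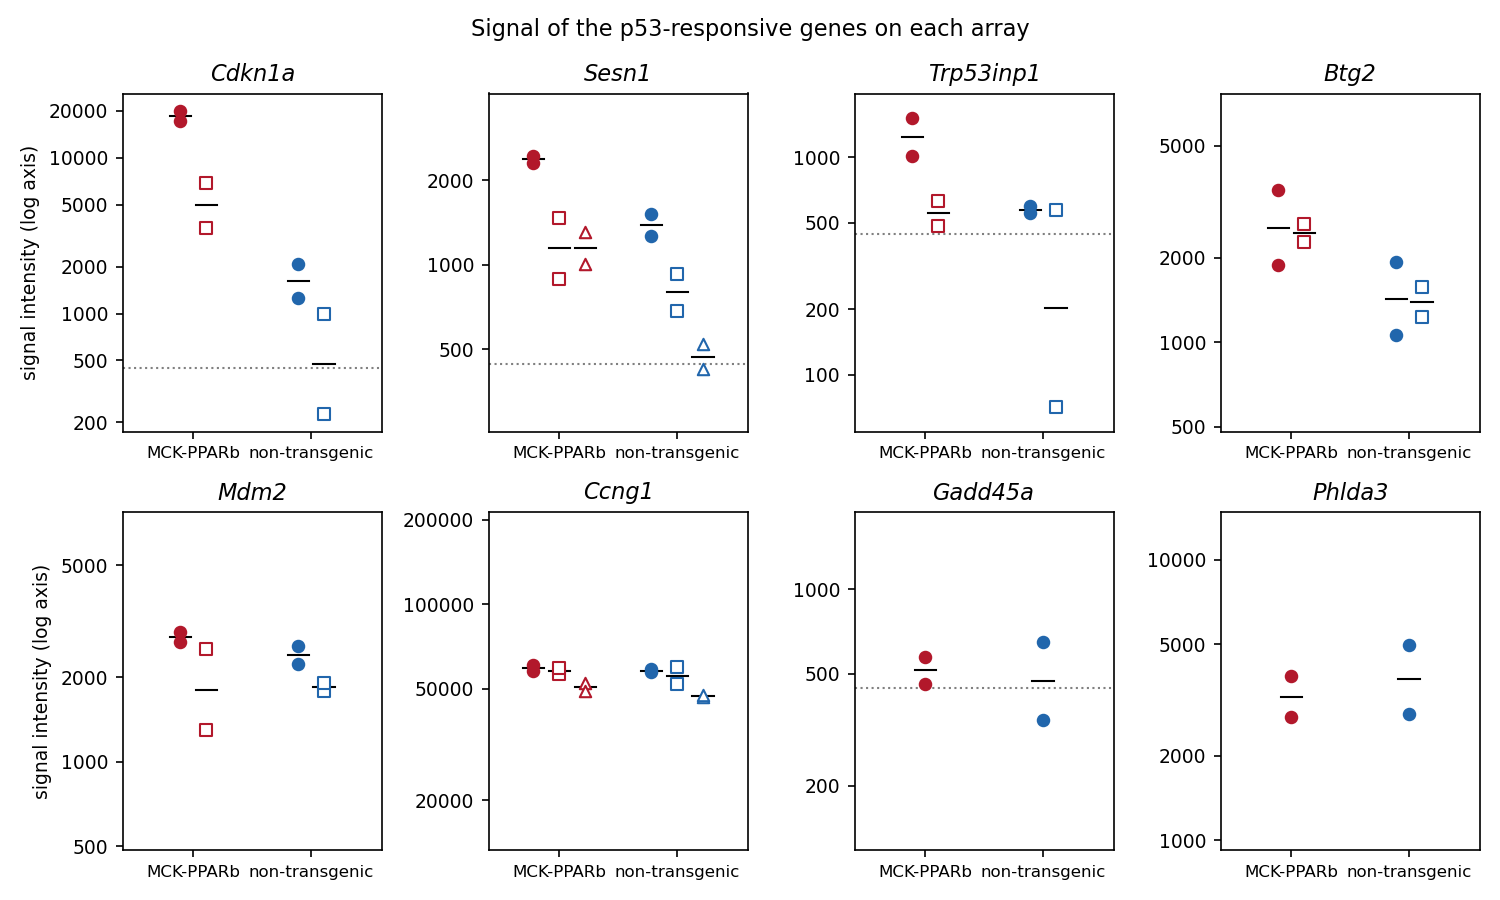
Signal intensity on each array (log axis; MCK-PPARb in red, non-transgenic in blue), 1 panel per gene. Filled circles are the probe set of highest mean, open symbols the other probe sets, bars the geometric means of 2 arrays, and the dotted line the filter level of 444. Cdkn1a separates widely in both probe sets, while the points of Ccng1 lie almost level.

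Cdkn1a, the inhibitor of cyclin-dependent kinases, read 17252 and 19850 in MCK-PPARb muscle, against 2079 and 1256 in non-transgenic muscle, in its probe set of highest mean. Both MCK-PPARb arrays lay far above both non-transgenic arrays. The difference was 3.52 ± 0.27 on the log2 scale (SE, n = 2 per group), an 11.5-fold ratio of the geometric means. Only 7 of the 6841 genes had a larger positive difference. The second Cdkn1a probe set read 6843 and 3561 in MCK-PPARb and 989 and 227 in non-transgenic muscle, with a similar difference of 3.38 ± 0.65. It also did not overlap, but its non-transgenic signals were far apart and 1 of them was below the filter level, and it was not called.

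Mdm2, the ligase that holds p53 down and one of its best-known targets, read 2890 and 2661 in MCK-PPARb muscle, against 2231 and 2582 in non-transgenic muscle. The groups were separated by a narrow margin, and the difference of 0.21 ± 0.21 was no larger than its standard error. Its second probe set overlapped and had a difference of -0.0283 ± 0.33. Ccng1 encodes cyclin G1, a p53 target that acts on Mdm2 with a phosphatase. It read 60618 and 57611 in MCK-PPARb muscle and 57334 and 58601 in non-transgenic muscle. These signals overlapped and lay close together, with a difference of 0.0279 ± 0.18. Its other probe sets differed by 0.0568 ± 0.19 and 0.10 ± 0.18. The sign of Ccng1 turned with median centring (-0.078) and without MCK-PPARb replicate 1.

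Sesn1 encodes sestrin 1, which restrains the growth kinase complex mTORC1 and limits oxidative damage. It read 2299 and 2440 in MCK-PPARb muscle, against 1521 and 1267 in non-transgenic muscle, and the groups did not overlap. The difference was 0.77 ± 0.23, a 1.71-fold ratio. The other probe sets of Sesn1 pointed the same way with different sizes. One read 1009 and 1302 in MCK-PPARb and 424 and 523 in non-transgenic muscle (1.28 ± 0.32), and the other read 888 and 1471 in MCK-PPARb and 683 and 928 in non-transgenic muscle (0.52 ± 0.35), where the groups overlapped. This last one represents the gene when probe sets whose names end in _s_at or _x_at, which can match several transcripts, are left out.

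Trp53inp1 encodes a stress protein that promotes cell death and autophagy. It read 1507 and 1006 in MCK-PPARb muscle, against 597 and 550 in non-transgenic muscle, without overlap. The difference was 1.10 ± 0.32, a 2.15-fold ratio, and it ran from 0.81 to 1.40 when 1 array was left out. Its second probe set was below the filter and read 629 and 484 in MCK-PPARb and 573 and 71.0 in non-transgenic muscle, where the groups overlapped.

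Btg2 encodes an antiproliferative protein that promotes the shortening of mRNA tails and is also an immediate early gene. It read 3484 and 1879 in MCK-PPARb muscle, against 1933 and 1059 in non-transgenic muscle, and the groups overlapped. The difference was 0.84 ± 0.39. In both groups replicate 1 was the brighter array, by 1.85-fold in MCK-PPARb and 1.82-fold in non-transgenic muscle, and without single arrays the difference ran from 0.39 (without MCK-PPARb replicate 1) to 1.28 (without MCK-PPARb replicate 2). The second Btg2 probe set read 2642 and 2274 in MCK-PPARb and 1227 and 1568 in non-transgenic muscle. There the groups did not overlap, and the difference, 0.82 ± 0.24, was almost the same.

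Gadd45a encodes a growth arrest protein that is induced by DNA damage and, in muscle, by denervation. It read 575 and 459 in MCK-PPARb muscle, against 341 and 650 in non-transgenic muscle, close to the filter level. The non-transgenic arrays enclosed both MCK-PPARb arrays, and the difference of 0.12 ± 0.43 ran from -0.34 to 0.59 when 1 array was left out. Phlda3, a p53-induced inhibitor of the kinase Akt, read 3839 and 2739 in MCK-PPARb muscle and 4976 and 2822 in non-transgenic muscle. The groups overlapped, the difference was -0.21 ± 0.31, and its sign turned without non-transgenic replicate 1 (0.20) and without MCK-PPARb replicate 2 (0.035). The range was -0.62 to 0.20 when 1 array was left out.

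**Figure D3:**
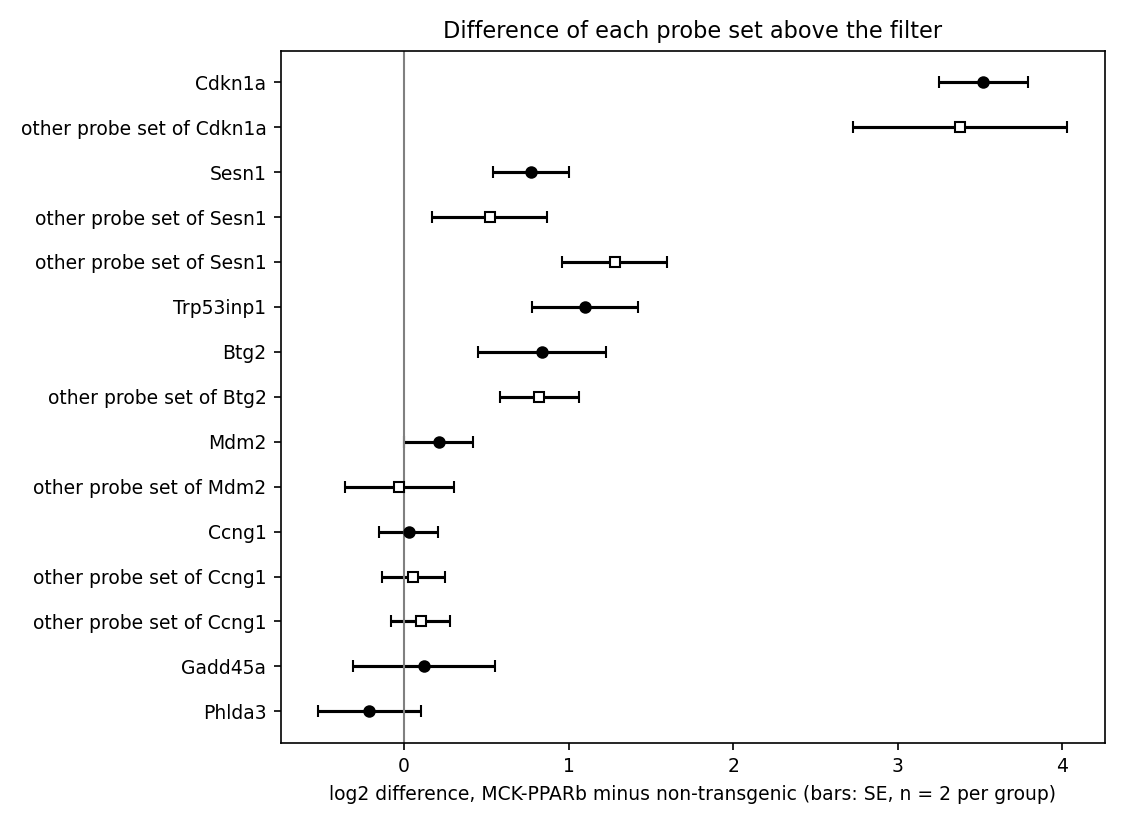
Log2 difference, MCK-PPARb minus non-transgenic, for the 15 probe sets above the filter; bars are the SE of the limma fit (n = 2 per group), filled circles the probe set of highest mean. Both probe sets of Cdkn1a lie at 3.38 and 3.52, those of Sesn1, Trp53inp1 and Btg2 between 0.52 and 1.28, and the others near zero.

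Set against all 6841 genes, 1.33% had a more positive difference than Trp53inp1, 3.23% than Btg2 and 4.03% than Sesn1. The shares were 28.7% for Mdm2, 37.6% for Gadd45a, 48.2% for Ccng1 and 73.1% for Phlda3. The median over the 7 genes other than Cdkn1a was 0.21, and that over all genes was 0.011. Beside the sequences shown above, decamer and difference stood as follows. Cdkn1a, with 2 matches, and Sesn1, with 1, lay higher, though the groups overlapped in a further probe set of Sesn1 (0.52). Mdm2, Ccng1 and Gadd45a had 1 match each and lay near zero. Btg2 had no match and a difference of 0.84, with groups that overlapped in that probe set but not in its second (0.82). Phlda3 had no match and a difference of -0.21, and Trp53inp1, with a difference of 1.1, had no window.

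Relatives of these genes by protein family gave 1 call. Cdkn1c, which encodes p57, the imprinted inhibitor of cyclin-dependent kinases related to p21, read 21070 and 16234 in MCK-PPARb muscle, against 6646 and 4765 in non-transgenic muscle. It rose 3.29-fold (log2 1.72 ± 0.23, limma adjusted p = 0.0299), and the call was lost without the intensity trend (adjusted p = 0.15) and without MCK-PPARb replicate 1 (adjusted p = 0.0966). Over all alternatives the adjusted p ran from 0.000122 to 0.15. Cdkn1b, which encodes p27, the third of that family, differed by -0.0355. Of the 13 relatives above the filter, 1 rose, 0 fell and 12 did not pass, with a median difference of -0.018. Over all genes, 0.731% were called. Phlda1, a relative of Phlda3, read 2066 and 2411 in MCK-PPARb and 828 and 1123 in non-transgenic muscle (1.21 ± 0.27, limma adjusted p = 0.125). Gadd45b, a relative of Gadd45a, read 695 and 750 in MCK-PPARb and 1512 and 1255 in non-transgenic muscle, the opposite way (-0.93 ± 0.27, adjusted p = 0.26). Differences were -0.75 for Gadd45g, -0.23 for Trp53inp2, 0.32 for Ccng2 and 0.34 for Sesn3, and none of them passed. Gadd45g read 367 on both MCK-PPARb arrays and 406 and 935 in non-transgenic muscle, and its difference was -1.35 without non-transgenic replicate 1 and -0.15 without non-transgenic replicate 2.

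In a wider list of 48 further p53 targets no gene was called. Of its genes, 43 were on the array and 26 above the filter, and of these 0 rose, 0 fell and 26 did not pass in limma. At an unadjusted p under 0.05 there were 4, or 15.4%, against 10.9% of all genes. That count was 0 without MCK-PPARb replicate 1, 2 without MCK-PPARb replicate 2, 5 without non-transgenic replicate 1 and 1 without non-transgenic replicate 2. The groups did not overlap for 8 genes with MCK-PPARb higher and for 8 with MCK-PPARb lower, 30.8% each, against 22.2% and 20.8% of all genes. Differences ran from -0.72 to 0.73 with a median of -0.092, beside 0.011 for all genes. Ephx1, which encodes an epoxide hydrolase, read 2161 and 2209 in MCK-PPARb and 1401 and 1246 in non-transgenic muscle (0.73 ± 0.23, limma adjusted p = 0.297). Tob1, an antiproliferative relative of Btg2, read 5288 and 8801 in MCK-PPARb and 10183 and 12466 in non-transgenic muscle (-0.72 ± 0.27, adjusted p = 0.389). Zmat3, an RNA-binding protein gene and a direct p53 target, read 1145 and 1071 in MCK-PPARb and 755 and 801 in non-transgenic muscle (0.51 ± 0.27, adjusted p = 0.566). The other named members differed by 0.67 (Abhd4, a lipid hydrolase gene), 0.37 (Rchy1, a ubiquitin ligase gene that targets p53), -0.48 (Ak1, adenylate kinase), -0.57 (Rrm2b, the p53-induced subunit of ribonucleotide reductase) and -0.39 (Aen, a nuclease gene). The value of Abhd4 is from an _x_at probe set. Its other probe set above the filter differed by 0.25, and that of Aen by -0.16. With _s_at and _x_at probe sets left out, limma gave 3 list genes an unadjusted p under 0.05. None of the list was called in any alternative run. Of the 38 list genes with a promoter window, 6 (15.8%) held a p53 decamer, against 8.2% of all genes. Among 20 genes of proliferating cells listed for comparison, 3 (15.0%) held it. Pcna is in both lists, and with so few genes nothing is read from these shares.

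**Figure D4:**
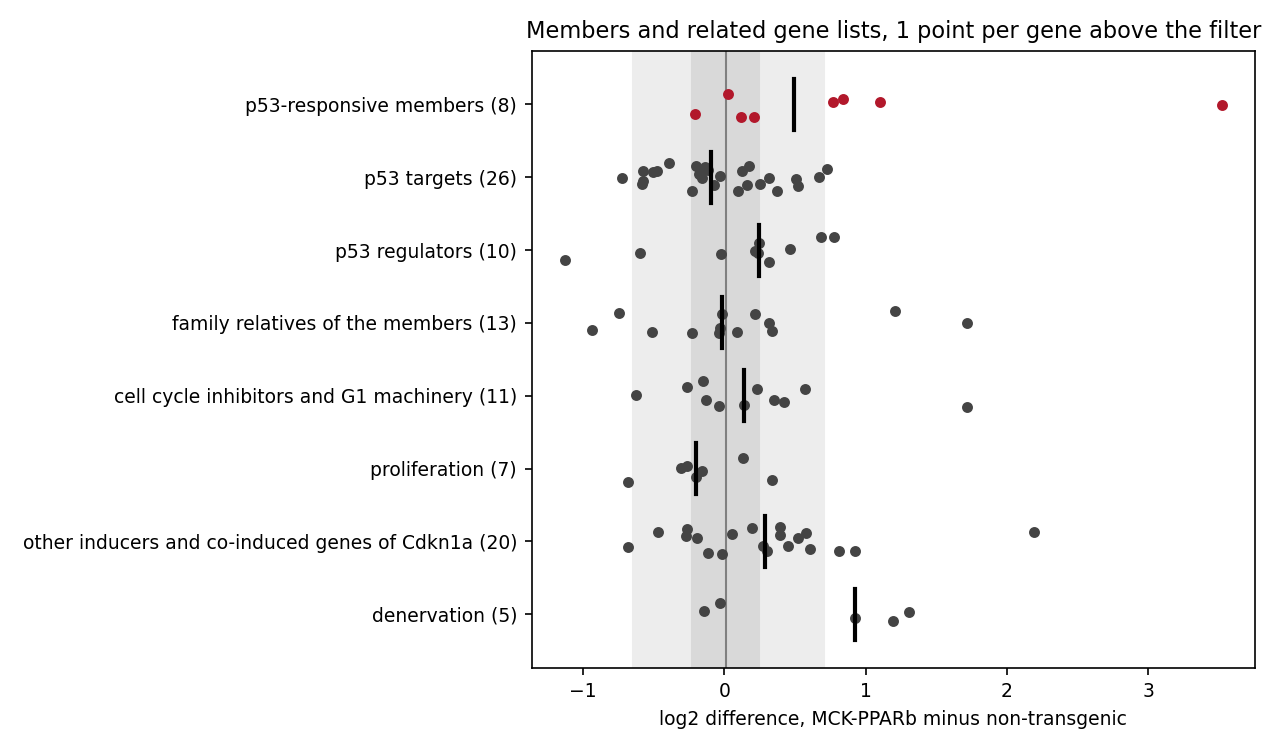
Log2 difference, MCK-PPARb minus non-transgenic, of each gene above the filter in the p53-responsive set (red) and in related lists (grey), with the number of genes in brackets and a black bar at each median. Dark shading runs from the 25th to the 75th and light shading from the 5th to the 95th percentile of all genes, and the thin line their median of 0.011. Cdkn1a stands alone at 3.52, and the 26 wider p53 targets lie between -0.72 and 0.73.

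Regulators of p53 gave no call. Of 22 listed, 10 were above the filter, and limma gave 3 of these 10 an unadjusted p under 0.05, against 10.9% of all genes. Trim24, which encodes a ubiquitin ligase of p53, read 1078 and 1004 in MCK-PPARb and 2045 and 2523 in non-transgenic muscle (-1.13 ± 0.24, adjusted p = 0.125). With all its probe sets averaged, Trim24 differed by -0.52 (limma adjusted p = 0.537). Usp7, whose deubiquitinase product stabilizes both Mdm2 and p53, differed by -0.59 ± 0.25 in an _s_at probe set (adjusted p = 0.454). With all its probe sets averaged, Usp7 differed by -1.38. Trp53bp1, a DNA break response gene, differed by 0.77 ± 0.29 (adjusted p = 0.387), and by 1.54 in its other probe set above the filter. Sirt1, a deacetylase of p53, differed by 0.68 ± 0.38 (adjusted p = 0.59). It read 475 and 704 in MCK-PPARb and 356 and 366 in non-transgenic muscle, where it lay below the filter level. Its difference was 0.38 with dim signals raised to that level. The median of the list was 0.24.

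Cell cycle genes are where p21 acts. Among 19 inhibitors and G1 genes, 11 were above the filter. Cdkn1c was the only call, the same one as among the relatives, beside 0.731% of all genes called. Cdkn2c, which encodes the inhibitor p18, read 1567 and 1424 in MCK-PPARb and 2726 and 1945 in non-transgenic muscle (-0.62 ± 0.25, limma adjusted p = 0.448). Rb1, the retinoblastoma gene, differed by 0.57 ± 0.27, Ccnd2 by 0.42 and Ccnd1 by 0.35, and none passed. The median of the list was 0.14. Of 23 genes of proliferating cells, 22 were on the array and 15 of them lay below the filter. The 7 above it gave no call and no unadjusted p under 0.05, with a median of -0.20. Differences were -0.68 for Mcm2, -0.30 for Mcm7, 0.34 for Rrm1 and -0.26 for Cdc20, the last with a sign that turned without non-transgenic replicate 1 (0.036). Mcm2 read 317 and 446 in MCK-PPARb and 699 and 522 in non-transgenic muscle, close to the filter level. Its difference was -0.44 with dim signals raised to that level and -0.34 with the mean of probe sets.

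Genes of other routes to Cdkn1a were listed as well: FoxO and myogenic factors, KLF and C/EBP factors, glucocorticoid-responsive genes and Atf3. Of the 20 above the filter, none passed in limma, with a median of 0.29. The unadjusted p was under 0.05 for 1, or 5.0%, against 10.9% of all genes. That gene was Atf3, a stress-induced transcription factor gene, which read 2304 and 1492 in MCK-PPARb and 800 and 208 in non-transgenic muscle (2.19 ± 0.60, adjusted p = 0.232). Atf3 differed by 1.64 with dim signals raised to the filter level, below which its signal of 208 lay. It passed without non-transgenic replicate 1 (3.16, adjusted p = 0.00611) and differed by 1.21 without non-transgenic replicate 2, with an adjusted p of 0.00178 to 0.60 over the alternatives. Sgk1, a glucocorticoid-responsive kinase gene, differed by -0.68. Cebpd, the gene of a C/EBP factor, differed by 0.81 with overlapping groups, by 0.17 without non-transgenic replicate 1 and by 1.45 without non-transgenic replicate 2. Myog, the gene of the myogenic factor myogenin, differed by 0.92 ± 0.43, where MCK-PPARb replicate 2 alone was high (1169 and 2964 in MCK-PPARb, 1092 and 882 in non-transgenic muscle), and by 0.25 without that array and 1.59 without MCK-PPARb replicate 1.

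Cdkn1a and Gadd45a are known to rise in denervated muscle, so genes of denervation were listed too. Of 11, 5 lay above the filter and none passed. Chrna1, which encodes the alpha subunit of the acetylcholine receptor, read 3362 and 3100 in MCK-PPARb and 1368 and 1240 in non-transgenic muscle (1.31 ± 0.22, limma adjusted p = 0.0606). It passed without non-transgenic replicate 1 (adjusted p = 0.0433), with the filter at the 75th percentile (0.0419), with robust eBayes (0.0481), with the mean of probe sets (0.0364) and with the replicate block (0.0046). Over the alternatives its adjusted p ran from 0.0046 to 0.285. Myh8, the neonatal myosin gene, differed by 1.19 ± 0.39 (limma adjusted p = 0.329). It read 657 and 834 in MCK-PPARb and 260 and 407 in non-transgenic muscle, where it lay below the filter level. Its difference was 0.74 with dim signals raised to that level. Musk, a receptor kinase of the junction, differed by -0.14 ± 0.39, which turned to 0.33 without MCK-PPARb replicate 2. The median over the 5 genes was 0.92, which is the value of Myog, also in this list. Myog differed by 0.25 without MCK-PPARb replicate 2 and by 1.59 without MCK-PPARb replicate 1.

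Markers of other cell types moved unevenly, and in whole muscle fewer cells of a type and less RNA per cell cannot be told apart. The 3 Schwann cell markers above the filter of 6 listed (Pmp22, Mbp and Mal) summed to 30029 and 34036 in MCK-PPARb and 17815 and 19436 in non-transgenic muscle. The 3 adipocyte markers of 6 (Adipoq, Retn and Fabp4) summed to 12365 and 11985 in MCK-PPARb and 9233 and 14015 in non-transgenic muscle. Adipoq differed by 1.03, Retn by 1.02 and Fabp4 by -0.23 in its probe set of highest mean, and none of them was called. The 2 other probe sets of Fabp4 above the filter pointed the opposite way, both higher in MCK-PPARb, the smaller difference being 0.27. Macrophage markers (5 of 6) summed to 7910 and 8117 in MCK-PPARb and 7794 and 7030 in non-transgenic muscle. For endothelial cells (6 of 6), the sums were 9940 and 9985 in MCK-PPARb and 9510 and 11292 in non-transgenic muscle, and for fibroblasts (5 of 5) 185964 and 163584 in MCK-PPARb and 187457 and 177006 in non-transgenic muscle. Satellite cell markers (2 of 5) gave 2285 and 2420 in MCK-PPARb and 2548 and 1997 in non-transgenic muscle, and Alas2, the 1 blood marker above the filter, 897 and 1060 in MCK-PPARb and 1046 and 720 in non-transgenic muscle. The part of these cells in the signals of Cdkn1a, Sesn1, Trp53inp1 and Btg2 was not tested.

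The genes whose pattern was most like that of Cdkn1a were none of its p53 companions. Likeness was the root mean square distance, over the 4 arrays, between log2 signals centred on each gene's mean. The nearest 5 were Hspa1a (0.319), an inducible Hsp70 gene, Igf2 (0.424), a fetal growth factor gene, Atp1b4 (0.45), a relative of the sodium pump's beta subunit, Dnajb1 (0.566), an Hsp40 gene, and Rgs2 (0.631), a regulator of G protein signalling. Their own differences ran from 2.42 for Rgs2 to 4.31 for Atp1b4. Atp1b4 read 2340 and 1842 in MCK-PPARb and 123 and 88.8 in non-transgenic muscle, where it lay below the filter level, and its difference was 2.22 with dim signals raised to that level. By the same measure Trp53inp1 ranked 83, Sesn1 207 and Btg2 220 among all genes, and Phlda3 ranked 4822. With 4 arrays in 2 groups, genes with group differences of similar size are close by this measure whatever else they share.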

How the data were processed

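Gastrocnemius RNA was labelled as biotinylated cRNA and measured on 4 one-colour Affymetrix arrays. The authors deposited 1 signal intensity per probe set and array. The tools GCOS and MAS5 appear in the submitters' processing notes, with versions not given in the sources used here, and no detection calls were used. Of 22690 probe sets, 64 controls were left out. Of the other 22626, 20380 carried 1 symbol, 691 several and 1555 none, and 20351 symbols were updated through the gene number with the GRCm38.p6 gene table. Each gene stands for its probe set with the highest mean log2 signal.

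Log2 signals with no pseudocount were fitted with limma 3.58.1 in R 4.3.3 (lmFit, eBayes with an intensity trend, both directions, Benjamini-Hochberg over the 11313 probe sets above the filter). Beside 2 residual degrees of freedom, the prior had 5.38. Differences are MCK-PPARb minus non-transgenic. The number of arrays limits the precision. Members and lists were chosen with earlier results of these data known. The text names all members, the called genes and those of smallest unadjusted p in each list (up to 8 from p53 targets, 6 from relatives, 4 from others), and the 5 genes most like Cdkn1a; Cdkn1b was added after its value was seen.

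Results were also computed with arrays quantile normalized or centred on their medians, with a pseudocount of 64, with the filter dropped or set at the 75th percentile, and with dim signals raised to the filter level. Further alternatives were robust eBayes, eBayes with no trend, the replicate number as a block, each array left out, an adjusted p under 0.1, _s_at and _x_at probe sets left out, and averaging all probe sets per gene. Python 3.11.15 was used for summaries.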

Additional observations from a re-analysis of the deposited data

How the results depend on the processing

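The Cdkn1a difference ran from 3.15 to 3.88 over the 16 alternatives, both ends from leaving out 1 array. Gadd45a and Trp53inp1 had no value with the filter at the 75th percentile. The median over the other 7 genes ran from 0.10 to 0.40, and from 0.15 to 0.40 with 1 array left out. Median centring moved the median of all genes from 0.011 to -0.095 and turned the sign of Ccng1, and raising dim signals to the filter level turned Gadd45a to -0.066. The number of genes called, 50, was 26 to 105 with 1 array left out, 14 without the intensity trend, 102 at an adjusted p under 0.1 and 218 with the replicate block. By the labels, same-numbered arrays share only a number. Deviations of same-numbered arrays from their group means correlated at 0.276 over probe sets, and with the block none of the other 7 genes and none of the wider p53 targets was called, while Trim24, Phlda1, Atf3 and Chrna1 passed. Signs turned for 3 further genes that were not called: Musk without MCK-PPARb replicate 2 (-0.61 to 0.33 with 1 array left out), Cdc20 without non-transgenic replicate 1 (-0.56 to 0.036 with 1 array left out) and Aen (0.19) with the mean of probe sets. The causes of these changes were not tested. Signals near 444 units, as for Gadd45a, limit what can be seen.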
